A study of Mus musculus with 6 samples.

Results

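Club-high cells are described here: the 5% of cells of 1 droplet library that held the largest share of transcripts from 4 genes of the airway club cell, Scgb1a1, Scgb3a2, Cyp2f2 and Aldh1a1. They were chosen by measured values, as the cells with the highest summed fraction of UMIs (molecules counted by their tags) in those 4 genes. They number 818 of the 16367 cells of the library, and of 36540 cells kept in the whole series. The reference is the 50% of the same library lowest in that sum, 8183 cells.

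The study sorted alveolar type II (ATII) cells from mouse lung and grew them as alveolarspheres, hollow colonies cultured without serum or feeder cells. Its 3 expression libraries hold sorted cells at day 0 from young and old mice, cells at day 13 of culture from young and old mice, and cells at day 13 from young mice. The mice of every group are labelled IL4Ra WT, and each library mixes cells that carried multiplexing tags. In culture, 10 ng/ml of an interleukin, IL-4 by the series title, or PBS as its control was added from day 3. Each group is 1 library, so its animals are pooled, and no label links a barcode to an animal, age or treatment. The barcodes carry 3 library tokens that match no label. The tokens are called A, B and C in the order of their first appearance, and library A holds the cells described. Which day and which mice library A came from was therefore not assigned. There are no replicates, no test was run and no p-value is given. Genes are compared by size, and each interval printed is an exact 95% one for counting error alone.

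Club cells are secretory cells of the conducting airways. They release secretoglobins, small secreted proteins of which Scgb1a1 is the best known, and they hold cytochromes P450 and other enzymes that break down foreign chemicals. ATII cells line the alveoli, make surfactant, and are marked by surfactant protein C (Sftpc) and the lysozyme Lyz2. Cells that hold transcripts of both kinds are known from the junction of airway and alveolus in mouse lung, where they carry Scgb1a1 together with Sftpc. In droplet data, RNA set free by broken cells can also place transcripts of one cell type into droplets of another.

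Cells of library A had a median of 3749 UMIs, from 1638 to 12108, and a median of 1390.0 genes. Club-high cells had a median of 4152 UMIs, or 4009 outside the 4 genes, against 3602 in the reference, so they were somewhat deeper. The mitochondrial share had a median of 2.508% in club-high cells and 2.301% in the reference. Of library A's barcode sequences, 87 (0.532%) also occurred in library B or C, and 2 of them were club-high cells.

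The sum that chose the cells was a continuous, long-tailed quantity with no gap at the threshold. In library A, 4391 cells held 0 UMIs of the 4 genes and 3440 held 1. The last cell inside the threshold held 33 of its 4330 UMIs in the 4 genes (0.7621%), and the first cell outside held 32 of 4202 (0.7615%). Club-high cells held between 16 and 3978 such UMIs with a median of 71.0, and reference cells between 0 and 4. In the highest cell the 4 genes took up 50.68% of 7849 UMIs.

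**Figure D1:**
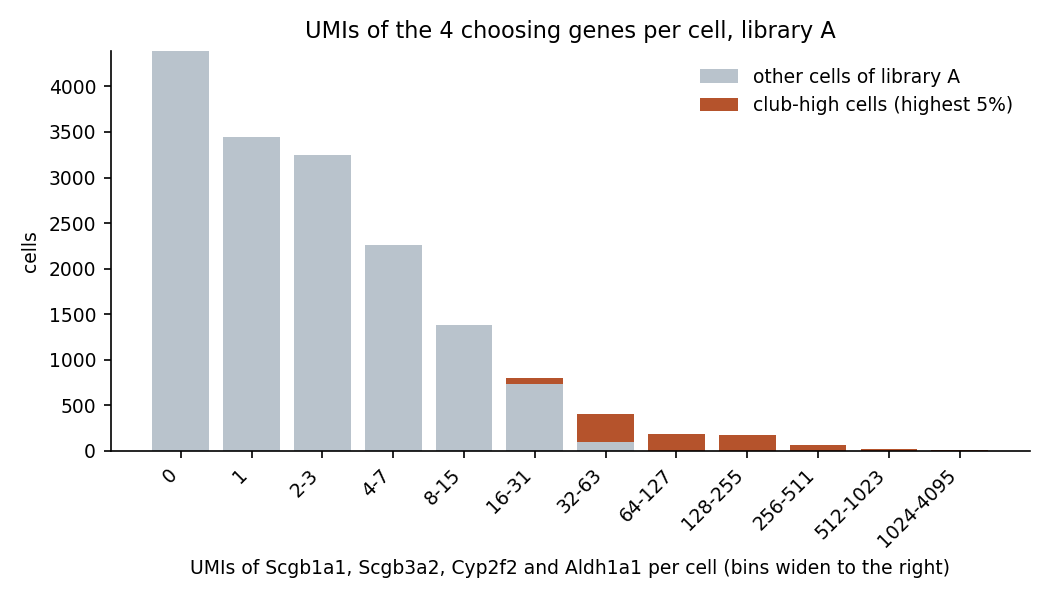
Number of cells of library A (vertical axis) by the UMIs of the 4 choosing genes that a cell held (horizontal axis, bins that widen to the right), with club-high cells in orange and all other cells in grey. The counts fall off without a gap from 4391 cells at 0 UMIs to 6 cells at 1024 or more, and both classes occur in the bins from 16 to 63 because cells were ranked by share, not by count.

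Scgb1a1, the main secretoglobin of club cells (chromosome 19, 9083636 to 9087958, minus strand, GRCm38), made up nearly all of the sum. It gave 98.7% of the club-high cells' UMIs of the 4 genes, 105690 UMIs, and all 818 cells held it. The median club-high cell held 70.0 Scgb1a1 UMIs, the 5th percentile was 27.0, the 95th was 355 and the highest was 3969. Club-high cells thus held 66.3% of all Scgb1a1 UMIs in library A. Scgb1a1 was nevertheless spread widely, with at least 1 UMI in 69.5% of the library's cells and in 40.2% of the reference.

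The other 3 choosing genes were far scarcer. Cyp2f2 (chromosome 7, 27119909 to 27133660, plus strand), a cytochrome P450 of club cells that activates naphthalene, was found in 428 club-high cells (52.3%) and in 6.48% of the reference. Scgb3a2, a second secretoglobin, was found in 48 club-high cells (5.87%) and in 9 reference cells (0.110%). Its UMIs lay in few cells: the 10 richest cells of library A held 49.0% of them, with up to 41 in 1 cell. Aldh1a1, a retinal dehydrogenase, was found in 47 club-high cells (5.75%) and 88 reference cells (1.08%). The cells were in effect ranked by Scgb1a1, and a minority also carried a second of the 4 genes beyond Cyp2f2. These values describe the choice and are no finding.

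Each choosing gene was therefore read where it had no part in the choice. With the cells chosen on the other 3 genes, Scgb1a1 stood at 19995 CPM (counts scaled to a common total per class, from which the 4 choosing genes were left out) against 1498 in the matching reference, a ratio of 13.3. A Scgb1a1 UMI was found in 80.4% of those chosen cells and 73.6% of their reference. Most cells of the library held none of the other 3 genes, and among such ties the deeper cells went to the reference. These shares were not read at equal depth, so the amount per cell and the share of cells were not separated. Cyp2f2 stood at 300.0 against 37.7 CPM (log2 ratio 2.99, 2.87 to 3.12), and Scgb3a2 at 78.4 against 0.715 CPM (6.78, 6.15 to 7.48). Aldh1a1, at 15.8 against 5.23 CPM, had the smallest ratio, 3.01 (log2 1.59, 1.11 to 2.05). By summed counts all 4 genes were thus higher in cells picked by the others.

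A second reading split each cell's UMIs at random, chose cells on one part and read the other. It gave log2 ratios of 6.77 for Scgb1a1, 8.0 for Scgb3a2, 3.09 for Cyp2f2 and 1.56 for Aldh1a1. In this reading each gene still took part in the choice, through the other part of the same cells' UMIs. The split thus kept only the counting error of the choice out of the ratios. Of the 818 cells chosen on that part alone, 767 were also club-high cells by all their UMIs. Because all their UMIs include that part, a high overlap was favoured by construction and nothing is concluded from it.

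**Figure D2:**
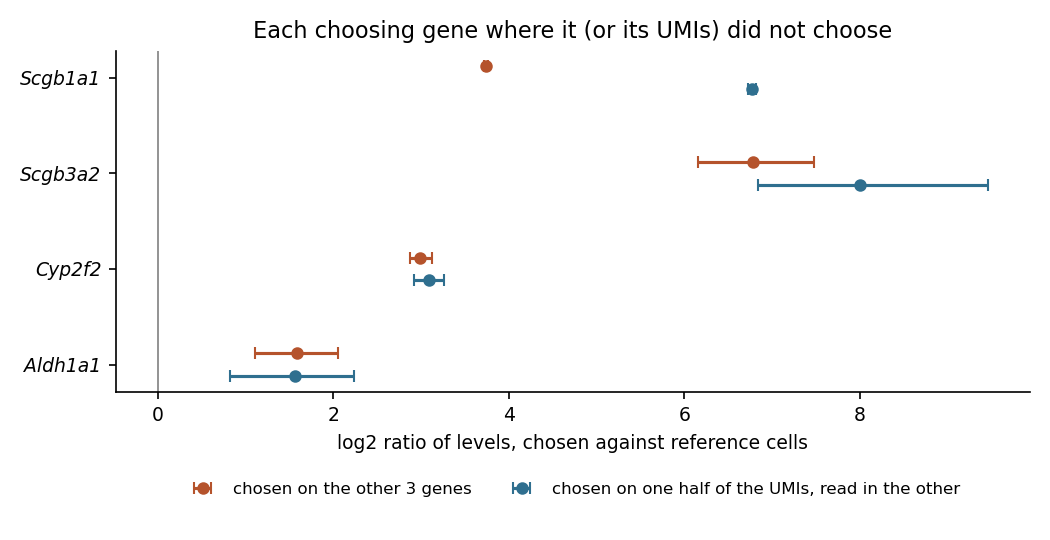
Log2 ratio of the level of each choosing gene in chosen against reference cells of library A (horizontal axis; points are ratios, bars exact 95% intervals for counting error). Orange points come from cells chosen on the other 3 genes and blue points from cells chosen on one random part of their UMIs and read in the other; the ratios lie between 1.56 for Aldh1a1 and 8.0 for Scgb3a2.

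The genes of the sum did not keep a fixed proportion. Cells of library A were put in 6 bands by percentile of the sum, and the bands were chosen after the data were seen. From the reference upward through the bands 50 to 75, 75 to 90, 90 to 95, 95 to 98 and 98 to 100, Cyp2f2 had 149, 103, 33.4, 14.7, 13.5 and 8.81 UMIs per 1000 of Scgb1a1. With the bands set on one random part of the UMIs and the ratio read in the other, it was 133 (122 to 145) in the lowest band and 9.41 (8.48 to 10.4) in the highest. Cyp2f2 per unit of Scgb1a1 was lower the more Scgb1a1 cells held, in both readings. Scgb3a2 had between 1.94 and 3.00 UMIs per 1000 of Scgb1a1 across the same 6 bands. Its lowest band rests on 9 Scgb3a2 UMIs, and its ratio was not read in separate UMIs. A constant ratio is thus not shown.

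No empty droplets were analysed here, so the level of free RNA was not measured directly. The nearest comparison is with 128 cells of library A whose Sftpc share was under the reference's lowest 1% (12.9% of UMIs). They held Scgb1a1 at 4257 CPM, with a UMI in 51.6% of cells at a median depth of 2713 UMIs, and the other 16239 cells held it at 2498 CPM, in 69.6% of cells at a median of 3753 UMIs. A single low-Sftpc cell held 703 of the 1727 Scgb1a1 UMIs of that set, so much of its level came from that cell. The summed levels thus do not show that low-Sftpc cells in general held more Scgb1a1. The low-Sftpc cells are not a cell type known to lack Scgb1a1. The part of free RNA in the low reference counts of Scgb1a1 was not tested.

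Outside the 4 genes, 5197 genes had at least 20 CPM in either class, and their median log2 fold (on the scale of log2 of CPM + 1, club-high against reference) was -0.10. A gene was called where it was at least 2-fold apart. By that rule 16 genes were higher in club-high cells (0.308% of those compared) and 26 were lower (0.500%). Scaling by TMM, a method that centres the bulk of genes, gave 19 higher and 20 lower. A gene that reached 20 CPM in 1 class alone had its direction fixed by that filter, so the counts and medians of lists below are descriptions and support nothing. Of all genes compared, 3465 of 5197 stood below 0. The genes called were few, and most of the transcriptome outside the sum stood within 2-fold of the reference.

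Among 28 other genes of the club cell, 11 reached 20 CPM, and these 11 stood above 0 with a median log2 fold of 0.48, beside -0.10 for all genes compared. Cckar and Cyp4b1 reached 20 CPM in club-high cells alone, so that the filter fixed their sign, and Iyd missed it at 13.4 against 15.9 CPM (-0.23). Cckar, Pon1 and Cyp4b1 were called higher and none was called lower, beside 0.308% called higher and 0.500% called lower over all genes. The 8 others did not pass, and 7 of the 28 had no UMI in any club-high cell.

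Cckar (chromosome 5, 53697776 to 53707705, minus strand), the receptor for cholecystokinin, was found in 85 club-high cells (10.4%) and 170 reference cells (2.08%). Its level was 27.9 against 5.78 CPM, a log2 fold of 2.09. With every cell thinned to 2000 UMIs, which left out 11 club-high and 161 reference cells, the shares were 5.45% (3.99 to 7.25) and 1.20% (0.970 to 1.46). The share of Cckar cells was thus also higher at equal depth.

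Pon1, a paraoxonase that hydrolyses lactones and organophosphates, stood at 168 CPM in 331 club-high cells (40.5%) against 74.3 CPM in 20.7% of the reference, a log2 fold of 1.17. Cyp4b1, a cytochrome P450 of lung that oxidises fatty acids and foreign compounds, stood at 23.5 against 9.68 CPM (log2 1.20). Against all other cells, not the lowest 50%, Pon1 was at 0.76 and not called. Without cells that held at least 3 UMIs of other cell types' markers, Cyp4b1 was at 0.83 and not called.

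The abundant club-list genes that ATII cells also express differed less. Hp, which encodes the haemoglobin scavenger haptoglobin, stood at 1291 against 706 CPM (log2 0.87) and had a UMI in 94.4% of club-high and 83.4% of reference cells. Nupr1, a stress-responsive chromatin protein, and the glutathione transferase Gsta4 each had a log2 fold of 0.48. Selenbp1, a selenium-binding oxidase, had 0.35 and the carbonyl reductase Cbr2, at 3193 against 2749.7 CPM, had 0.22.

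Several listed genes of club cells were at 0. Scgb3a1, the third secretoglobin of airways, had 0 UMIs in both classes. Sult1d1, Cyp2a5 and Bpifa1, which are enzymes and a secreted defence protein of the airway, had 0 UMIs in club-high cells and 1 or 2 in the reference. Kcnj16 and Acsm1 had 0 in both. A count of 0 in 818 cells limits cells with a UMI only. These genes were at or near 0 in the reference too, so they say little of how the classes differ. Of other listed genes under the level minimum, some were higher in club-high cells, such as the claudin Cldn10 at 2.97 against 0.162 CPM. Iyd was lower. The name of these cells thus rests on the genes that chose them.

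ATII genes were at full level in the same cells. All 28 listed ATII genes were measured above 20 CPM, and their median log2 fold was -0.04, beside -0.10 for all genes. None was called in either direction, beside 0.308% called higher and 0.500% called lower over all genes. At those shares, 0 calls among 28 genes say little by themselves. Their summed level was 381055 CPM in club-high cells and 352085 CPM in the reference. Per cell, the ATII list took up a median of 38.53% of UMIs outside the 4 genes in club-high cells (28.79 to 46.96 from the 5th to the 95th percentile). In the reference it took up 35.61% (25.96 to 44.08). The 2 ranges overlapped over most of their width.

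Sftpc itself stood at 267701 against 251668 CPM (log2 0.09) and was found in every cell of both classes. Sftpa1 had a log2 fold of 0.07, Sftpb 0.01 and Sftpd, the collectin that binds microbes, -0.09. The lipid transporter Abca3 was at 497 CPM in both classes. Lyz2, the lysozyme of alveolar cells, had the highest fold of the list, 43893 against 31995 CPM (log2 0.46), and its reads may be shared with its near copy Lyz1. Ppp1r14c (-0.39), Lgi3 (-0.34) and the lamellar body protein Lamp3 (-0.26, 1489.9 against 1783 CPM) were the lowest 3 of the list. Only 6 club-high cells (0.733%, 0.270 to 1.59) were low in Sftpc by the reference's lowest percentile, against 82 reference cells (1.0%). The interval for club-high cells holds the reference's share.

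**Figure D3:**
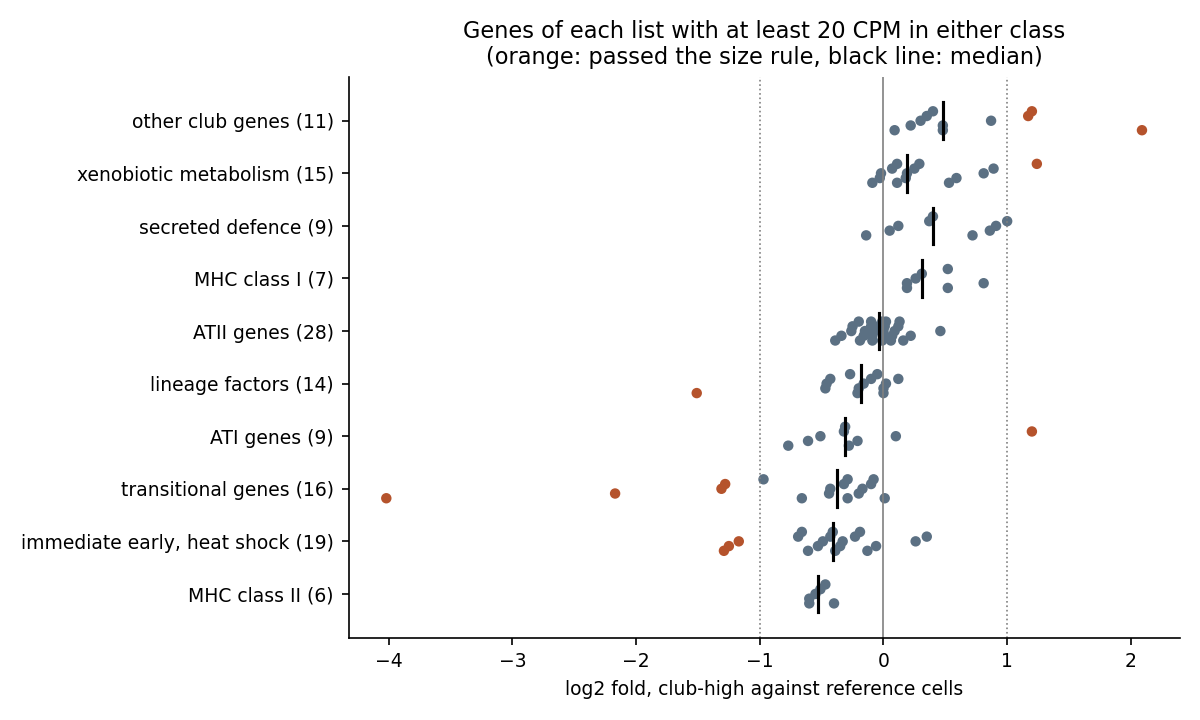
Log2 fold in club-high against reference cells (horizontal axis) of each gene with at least 20 CPM in either class, by gene list (rows, with the number of genes). Points are genes, orange where they passed the size rule, black lines are medians, dotted lines mark a 2-fold difference, and the medians of the 10 lists drawn, each with at least 6 genes measured, run from 0.48 for other club genes to -0.53 for MHC class II.

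Enzymes of xenobiotic metabolism, the class for which club cells are known, mostly stood within 2-fold of the reference. Of 28 listed, 15 reached 20 CPM, and 12 of these stood above 0, beside 1732 of 5197 over all genes. The median was 0.19 beside -0.10 for all genes, and 1 was called higher, beside 0.308% of all genes. This was Fmo2, the flavin monooxygenase of lung, at 87.6 against 36.6 CPM (log2 1.24), found in 26.4% of club-high and 10.9% of reference cells. After thinning to equal depth its shares were 13.1% (10.9 to 15.7) and 6.25% (5.73 to 6.80). The glutathione transferase Gstm2 had 0.89 and the cytochrome P450 Cyp2b10 had 0.81, at 106 against 59.9 CPM, and neither passed. Gsto1, a thiol transferase singled out after its values were seen, missed the level minimum with 19.0 against 3.22 CPM (log2 2.25).

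The genes called higher outside the club list had varied roles. Cd24a (chromosome 10, 43578284 to 43584265, plus strand) encodes a surface glycoprotein that is abundant on airway epithelium. It was found in 257 club-high cells (31.4%) and 9.97% of the reference, at 124 against 33.5 CPM (log2 1.85). At equal depth its shares were 19.3% (16.7 to 22.2) and 6.0% (5.49 to 6.54).

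Mgst2, a membrane glutathione transferase, had a log2 fold of 1.80 at 32.1 against 8.51 CPM. Slc7a11, the exchanger that imports cystine for glutathione synthesis, had 1.62 at 52.6 against 16.4 CPM. Rad51b, a gene of DNA repair, stood at 119 against 33.5 CPM (1.80).

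Trf, the iron carrier transferrin, stood at 337 against 133 CPM (1.33), with 32.7% of its club-high UMIs in 10 cells. Rbp4, the retinol carrier, stood at 73.9 against 29.6 CPM (1.29), and Spink5, a serine protease inhibitor, at 103 against 41.3 CPM (1.30). The remaining genes called higher were B430010I23Rik (1.69), Tshz2 (1.23), Ifi27l2a (1.15), Krtap17-1 (1.13) and the imprinted non-coding RNA Meg3 (1.77). Meg3 was found in 19 club-high cells, and 10 of them held 84.4% of its UMIs, so it describes few cells.

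Outside the lists, among genes with at least 50 CPM, the next highest did not pass the rule. They were Hdc, the histamine-forming decarboxylase (0.72), Cd55, an inhibitor of complement (0.71), Scin (0.67), the phospholipase Liph (0.65), Fgfbp1 (0.57), 1810010H24Rik (0.56) and Fam102b (0.55).

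Sox2, the transcription factor that specifies airway epithelium, was singled out after its values were seen, since it lies under the level minimum. It had 24 UMIs in 21 club-high cells (2.57%, 1.60 to 3.90) and 2 UMIs in 2 of the 8183 reference cells (0.0244%, 0.00296 to 0.0883). Its level was 7.13 against 0.0650 CPM. At equal depth it was found in 1.61% (0.860 to 2.74) and 0.0249% (0.00302 to 0.0900) of cells. Cldn10, a claudin of airway epithelium chosen in the same way, had 10 UMIs in club-high cells and 5 in the reference. Both genes were rare, and both were more frequent in club-high cells than in the 10-fold larger reference.

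Other lineage factors were level or lower. Of 16 listed, 14 reached 20 CPM, and the median was -0.18, beside -0.10 for all genes. None was called higher, beside 0.308% called higher and 0.500% called lower over all genes. Nkx2-1, the factor of the whole lung epithelium, stood at 148 against 166 CPM (-0.16), Klf5 at 187 against 184 CPM (0.02) and Gata6 at 88.2 against 119 CPM (-0.43). Foxp2, a forkhead repressor of the distal lung, was the 1 factor called lower, at 35.6 against 103 CPM (-1.51), and it was found in 11.9% of club-high and 25.7% of reference cells. The 4 of 10 Notch pathway genes that were measured stood below 0 with a median of -0.21, beside 3465 of 5197 genes and -0.10 over all genes, and none was called.

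The genes called lower included 4 of the 16 measured genes of the transitional state through which ATII cells pass on injury, and no gene of that list was called higher, beside 0.500% called lower and 0.308% called higher over all genes. The list's median was -0.37, beside -0.10. Sprr1a, a protein of cornified envelopes (chromosome 3, 92483952 to 92485895, minus strand), had 5 UMIs in 4 club-high cells and 1213 UMIs in 299 reference cells (3.65%), at 1.48 against 39.4 CPM (log2 -4.02). The calcium-binding protein S100a6 stood at 18.1 against 85.3 CPM (-2.17). Areg, a ligand of the EGF receptor, stood at 289.5 against 704 CPM (-1.28), and the stress-responsive Ndrg1 at 8.02 against 21.3 CPM (-1.31). The keratins Krt8 (-0.10) and Krt18 (0.01) were level.

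Sprr1a and S100a6 were concentrated in few cells. In an alternative added after the data were seen, 367 cells with at least 3 UMIs of these 2 genes were left out, of which 287 were reference and 5 were club-high cells. That choice lowers the folds of these 2 genes by its construction, to -1.46 for Sprr1a and -0.94 for S100a6. Areg (-1.20) and Ndrg1 (-1.30), which did not choose the cells left out, were still called lower.

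Immediate early and heat shock genes, which tissue dissociation can induce, were read next. Of 19, all measured, 3 were called lower and none higher, beside 0.500% and 0.308% over all genes. The median was -0.41 beside -0.10, and 17 stood below 0 beside 3465 of 5197 over all genes. Hspa1a, an inducible Hsp70 chaperone, stood at 551 against 1313 CPM (-1.25) and its near-identical copy Hspa1b at 202 against 496 CPM (-1.29). The split of reads between these 2 copies is uncertain. Dusp1, a phosphatase of MAP kinases, stood at 71.9 against 163 CPM (-1.17), while Fos (-0.69), Jun (-0.49) and Egr1 (-0.61) did not pass. Fosl1 (0.35) and Ier3 (0.26) were the 2 above 0. Thinned to equal depth, Hspa1a was found in 40.4% (37.0 to 43.9) of club-high and 63.7% (62.6 to 64.8) of reference cells.

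Of the other genes called lower, 4 had at least 50 CPM in either class and were in no list with a call. These were the collagen Col12a1 at 27.6 against 75.3 CPM (-1.41), the anthrax toxin receptor Antxr1 at 42.5 against 91.9 CPM (-1.10), Znrf3, a ubiquitin ligase that removes Wnt receptors, at 132 against 276 CPM (-1.06), and the secreted protein Ndnf at 35 against 71.5 CPM (-1.01). The tetraspanin Tspan8 was found in 4.77% of club-high and 16.1% of reference cells (-1.86) and the formin Diaph3 at 5.94 against 24.4 CPM (-1.87). The remaining 12 genes had log2 folds between -1.50 for Hdac9 and -1.02 for Efemp1. Outside the lists, the next lowest genes with at least 50 CPM did not pass: Slc1a3 (-1.0), Tle4 (-0.98), Dclk1 (-0.96), Tmem132d (-0.96), Adamts9 (-0.94), Adamts1 (-0.92), Sntb1 (-0.92) and Usp54 (-0.87).

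The genes called lower were not called again when Scgb1a1 was left out of the choice. With cells chosen on Scgb3a2, Cyp2f2 and Aldh1a1 alone, 9 genes were higher and 1 was lower. Of the original calls, 7 of the 16 higher genes and 0 of the 26 lower genes were called again. Cckar (1.77), Slc7a11 and Cd24a were among the genes called again. Under that choice Hspa1a was at -0.23, Areg at -0.12, Foxp2 at -0.40, Rad51b at 0.23 and Spink5 at 0.27. A cell's rank then rests on few UMIs and on its depth. The reference of that choice held Scgb1a1 at 1498 CPM, against 119.7 CPM in the main reference. Both classes of cells thus changed, and the cause of the lost calls was not tested.

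No gene of MHC class I or II presentation passed the size rule. Over all 5197 genes compared, 1732 stood above 0 and 3465 below, with a median of -0.10. All 7 measured genes of MHC class I presentation stood above 0 with a median of 0.31. Among them were H2-K1 at 943 against 658 CPM (0.52) and B2m at 327 against 227 CPM (0.52). All 6 measured genes of MHC class II stood below 0 with a median of -0.53, with Cd74 at 2442 against 3477 CPM (-0.51) and H2-Aa at 545 against 825 CPM (-0.60). Reads of class I genes may be shared between near copies. In the highest 2% of library A alone, 3 of the 7 class I genes stood below the reference, with a median of 0.03, and the class II median was -1.21. Chosen without Scgb1a1, H2-K1 was at -0.09.

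Secreted defence proteins, which both airway and alveolar secretory cells release, had no call. Of 16 listed, 9 were measured, and 8 stood above 0, beside 1732 of 5197 over all genes. The median was 0.40 beside -0.10 for all genes. The protease inhibitor Wfdc2 stood at 4703 against 3559 CPM (0.40), the chemokines Cxcl17 at 46.3 against 24.1 CPM (0.91) and Cxcl2 at 77.5 against 42.1 CPM (0.86), and Lcn2 was level (0.05). Pigr, the receptor that carries immunoglobulin A across epithelium, stood at 24.9 against 12 CPM (1.0), just under the 2-fold limit. ATI genes had 9 measured, a median of -0.31 and 1 call, Cyp4b1, which is also in the club list; Ager, the receptor typical of ATI cells, stood at 557 against 676 CPM (-0.28).

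Many listed markers of other cell types were at or near 0, but some were found in both classes. In club-high cells the summed level was 1.19 CPM for 5 basal cell genes, 1.78 CPM for 5 neuroendocrine genes and 8.61 CPM for 9 goblet cell genes. It was 0.594 CPM for 6 leukocyte genes and 0.297 CPM for 6 fibroblast genes. Krt5, Krt14 and Trp63 of basal cells, Ptprc of leukocytes, Col1a1 of fibroblasts and Cdh5 of endothelium had 0 UMIs. The endothelial list stood at 71.3 against 105 CPM, the alveolar macrophage list at 28.2 against 31.2 CPM and the B cell list at 28.2 against 28.5 CPM, each with 1 gene that reached 20 CPM and none called. Pecam1 of endothelium was found in 19.2% of club-high and 23.3% of reference cells, and Cd79b of B cells in 9.90% and 9.36%. Kdr of endothelium had 5 UMIs in club-high cells and 0 in the reference. The list of 14 ciliated cell genes stood at 252 against 199.8 CPM. Cd24a was the 1 called, and 5 were at 0. Sec14l3 stood at 68.6 against 85.2 CPM, Dynlrb2 at 31.8 against 33.7 CPM and Tppp3 at 21.1 against 36.6 CPM. The master regulator Foxj1 stood at 0.594 against 2.31 CPM, on 2 and 71 UMIs. Cd24a was thus higher in club-high cells, while no other gene of the ciliated list that reached 20 CPM was.

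Cells with at least 3 UMIs of other types' markers made up 21.5% (18.7 to 24.5) of club-high and 18.0% (17.2 to 18.8) of reference cells, with Cd24a counted as a ciliated marker. They were 98 of the 327 cells (25.1% to 35.3%) in the highest 2% of library A and 15.9% (12.8 to 19.4) of cells in the band from 95 to 98%. The part of these markers in the levels of the highest 2% was not tested. The highest 5% of doublet scores, computed here by simulating doublets, took in 4.52% (3.20 to 6.18) of club-high and 4.68% (4.23 to 5.16) of reference cells. Leaving those cells out gave 17 genes higher and 29 lower, with 16 of the 16 and 24 of the 26 genes shared.

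Genes picked after their values were seen showed 2 courses across the 6 bands of the sum, and not every called gene was sorted into one. In a first group of genes the level changed step by step from the reference on, before the club-high cells were reached. Trf stood at 133, 157, 205, 268, 404 and 232 CPM from the lowest band to the highest. Rad51b stood at 33.5, 57.4, 80.4, 102, 136 and 92.8 CPM, and both genes were thus highest in the 95 to 98% band. Spink5 had the same course, with 41.3 CPM in the reference, 136 CPM in the 95 to 98% band and 52.1 CPM in the highest 2%. Pon1 stood at 74.3, 107, 136, 179, 158 and 183 CPM.

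Genes called lower also belonged to this stepwise group. Hspa1a stood at 1313, 1135, 943, 772, 613 and 457 CPM. Foxp2 stood at 103, 83.5, 64.3, 51.0, 31.8 and 41.5 CPM, and Areg at 704, 492, 361, 303, 294 and 282 CPM. These genes differed between cells that all held few club transcripts as well as between club-high cells and the rest.

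A second group was near the reference level in every band below the club-high cells and high mainly in the highest 2% of the library. That band holds 327 cells with 56 to 3978 UMIs of the 4 genes, and the 95 to 98% band holds 491 cells with 16 to 187. Cckar stood at 5.78, 5.48, 6.37, 7.07, 12.7 and 51.3 CPM. Cd24a stood at 33.5, 26.4, 24.8, 25.6, 66.1 and 212 CPM, and Gsto1 at 3.22, 3.30, 2.33, 2.95, 7.34 and 37.0 CPM. Unlike the stepwise genes, these 3 did not increase beyond their counting intervals over the lower 95% of cells.

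Mgst2 reached 52.1 CPM in the highest band against 19.1 in the next and 8.51 in the reference. Hp, at 706, 732, 775, 825, 1014 and 1717 CPM, increased slightly over the lower bands and most in the highest. Of the 24 Sox2 UMIs in club-high cells, 19 lay in the highest 2%, where its level was 14.3 CPM, and of the 10 Cldn10 UMIs, 9 did.

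**Figure D4:**
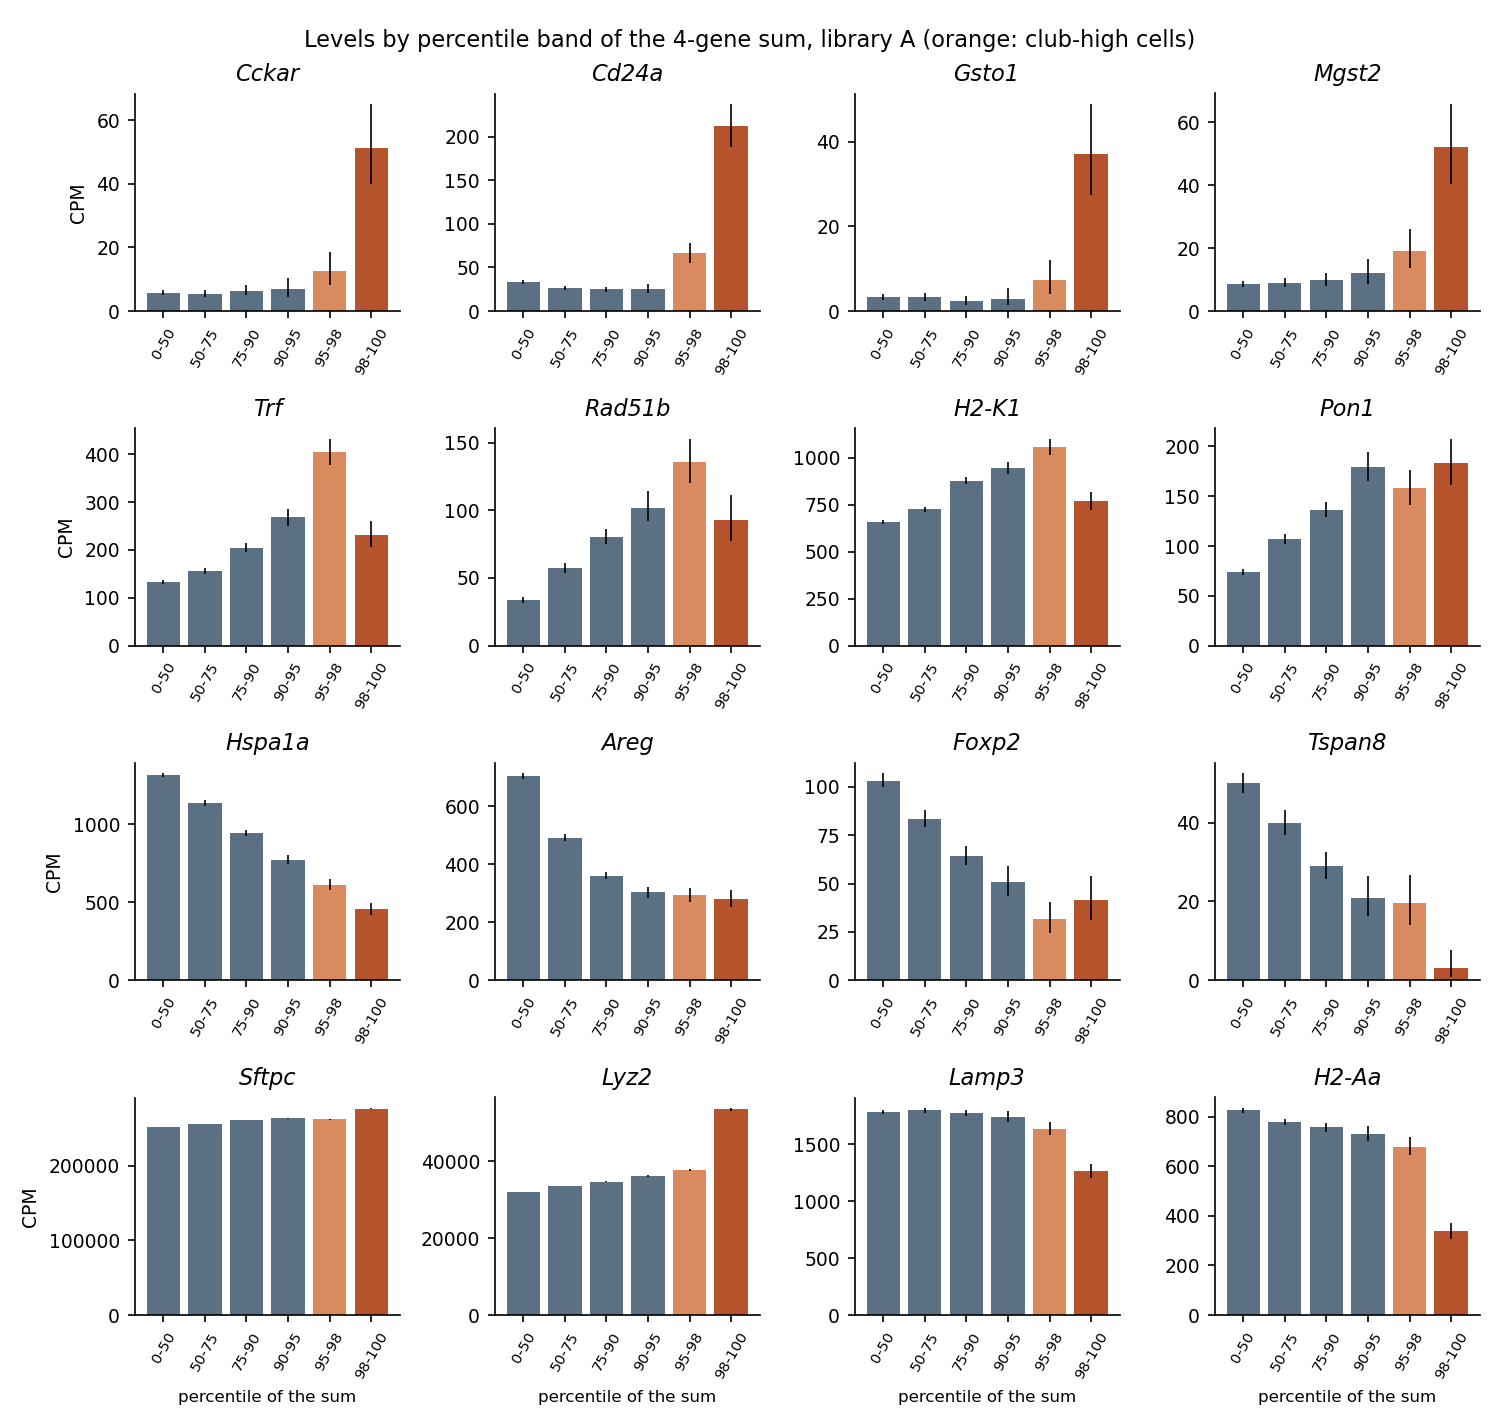
Level in CPM (vertical axes, from 0) of 16 genes in 6 bands of library A by percentile of the 4-gene sum (horizontal axes), with club-high cells in orange and exact 95% intervals for counting error as lines. Cckar, Cd24a, Gsto1 and Mgst2 are high in the highest 2%, Trf, Rad51b and H2-K1 are highest in the 95 to 98% band, Hspa1a and Areg step down through every band, and Sftpc is near level.

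The highest 2% and the 95 to 98% band of the club-high cells were then set against each other. Of 5169 genes compared, 25 were at least 2-fold higher in the highest 2% (0.484%) and 71 were lower (1.37%). Called higher were Cckar (log2 1.93), Cd24a (1.67), Cyp4b1 (1.13) and Kitl, the ligand of the Kit receptor, at 68.7 against 15.2 CPM (2.11). Krtap17-1 stood at 58.1 against 10.8 CPM (2.33) and B430010I23Rik at 60.4 against 12.2 CPM (2.21). Of the club-list genes called against the reference, Cckar and Cyp4b1 were called here and Pon1, at 183 against 158 CPM, was not. Cckar, Cyp4b1, Kitl, Krtap17-1 and B430010I23Rik reached 20 CPM in the highest 2% alone. The filter thus fixed the direction of their calls.

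Lower in the highest 2% were 4 genes of MHC class II, H2-Ab1 at 193 against 455 CPM (-1.23), H2-Eb1 at 142 against 295 CPM (-1.05), H2-Aa at 337 against 679 CPM (-1.01) and H2-DMa at 32.5 against 66.1 CPM (-1.0). Cd74, which escorts class II molecules, stood at 1755 against 2887 CPM and did not pass. Of MHC class I, H2-Q7 at 28.7 against 70.0 CPM (-1.26) and H2-Q6 at 9.81 against 21.5 CPM (-1.06) were called lower as well. Spink5 (-1.37), Bex2 (-1.44), Heatr1 (-2.71) and Retnla (-1.39) were also lower there. Meg3 had 2.26 CPM in the highest 2% and 36.2 CPM in the 95 to 98% band, so its call against the reference came from the latter. Ifi27l2a was likewise at -0.44 against the reference in the highest 2% and was called for the 95 to 98% band.

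The ATII list as a sum was highest in the cells richest in Scgb1a1, while most of its genes were not. The summed ATII list stood at 352085 CPM in the reference, 370028 CPM in the 95 to 98% band and 398052 CPM in the highest 2%. Sftpc stood at 262082 CPM in the 95 to 98% band and 276361 CPM in the highest 2%. Lyz2 was at 37675 and 53477 CPM in the same bands, while Lamp3 was at 1637 and 1263 CPM. In the highest 2%, 21 of the 28 ATII genes stood below the reference and 7 above, with a median of -0.11. The lowest included the cytokine Il33 (-0.72), Lgi3 (-0.55), Lamp3 (-0.50), the fatty acid carrier Fabp5 (-0.50), S100g (-0.49) and the phosphate transporter Slc34a2 (-0.35). In the 95 to 98% band 12 of the 28 stood below and the median was 0.02. No ATII gene was called lower when the highest 2% alone was set against the reference. That comparison called 125 of 5261 genes lower and 35 higher, and at those shares 0 calls among 28 genes say little.

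**Figure D5:**
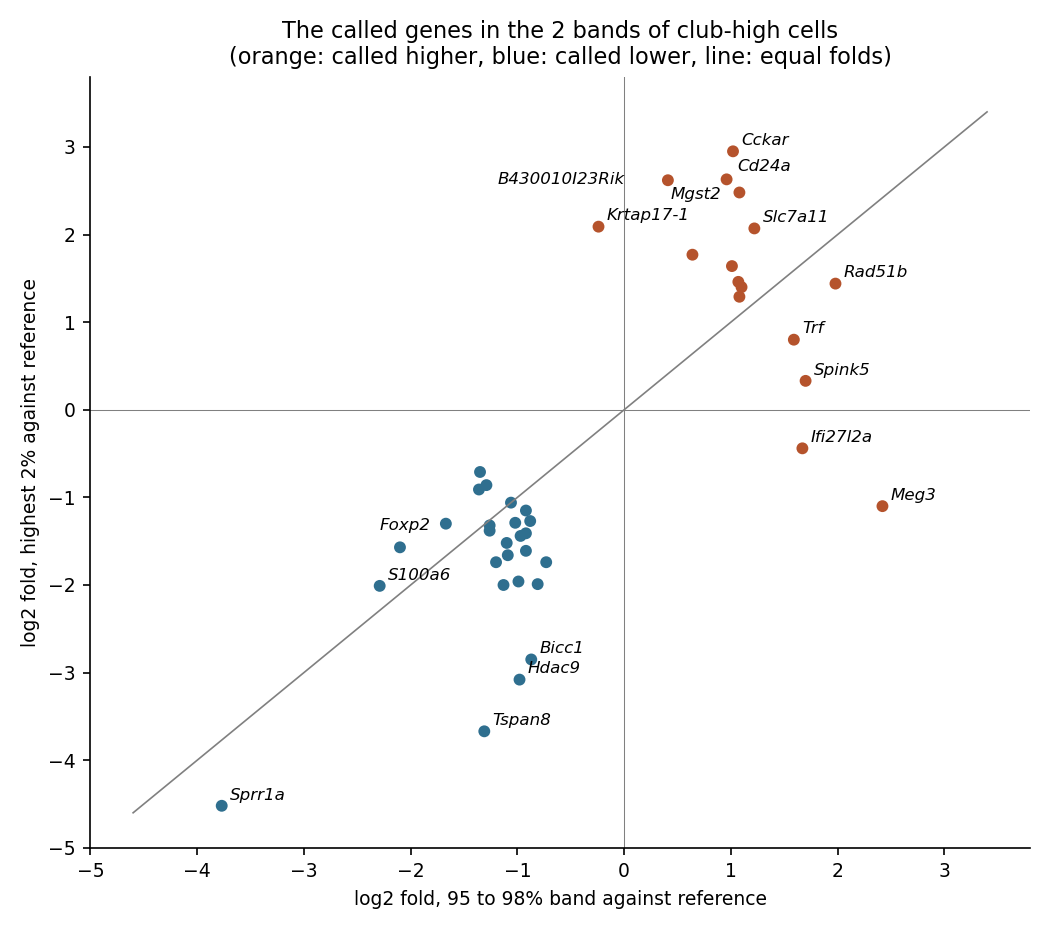
Log2 fold of each of the 42 called genes in the 95 to 98% band (horizontal axis) and in the highest 2% of library A (vertical axis), each against the reference; orange points were called higher and blue points lower, and the grey line marks equal folds. Cckar (1.02 and 2.95) and Cd24a (0.96 and 2.63) lie above the line, and Trf (1.59 and 0.80) and Meg3 (2.42 and -1.10) lie below it.

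Club-high cells with Scgb3a2 and those with Sox2 were read as sets formed after the data were seen. Of the 48 club-high cells with a Scgb3a2 UMI, 26 were in the highest 2%, and of the 21 with a Sox2 UMI, 16 were. A single cell held both, which at these set sizes says nothing of whether the genes avoid each other. The 16 cells with at least 5 Scgb3a2 UMIs held Scgb1a1 at 73516 CPM and Hp at 2822 CPM. They had 1 UMI of Cd24a and 0 of Sox2, and Sftpc at 222461 CPM, Lyz2 at 22985 CPM and H2-Aa at 988 CPM. All 48 Scgb3a2 cells together held Cd24a at 103 CPM (63.6 to 157) and Lyz2 at 35912 CPM, nearer to the club-high averages of 124 and 43893 CPM.

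The 21 Sox2 cells held Sftpc at 268165 CPM, Lyz2 at 57496 CPM, Cd24a at 285 CPM (188 to 415), Cyp2f2 at 517 CPM and H2-Aa at 485 CPM. Sftpc was abundant in both sets. With so few cells the intervals are wide where counts are small.

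The same rule in libraries B and C found cells with far fewer club transcripts. In library B it chose 279 cells with a median of 3.00 UMIs of the 4 genes, and in library C 729 cells with a median of 1.0. The chosen cells were shallower than their references there, with median depths of 7494.0 against 9700.5 UMIs in library B and 2885.0 against 4247.5 in library C. At these counts a cell's rank rests on single UMIs and on its depth.

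Over all genes, library B had 64 of 4793 higher (1.34%) and 88 lower (1.84%), and library C had 36 of 4703 higher (0.765%) and 140 lower (2.98%). Of the 16 genes higher in club-high cells of library A, 8 were measured in library B and 2 were called higher, Rbp4 (1.11) and Mgst2 (1.18). In library C 8 were measured and 0 were called higher. Of the 26 genes lower in library A, 2 of 15 measured were lower and 3 higher in library B, and 0 of 14 were lower and 2 higher in library C. Cd24a was at 242 against 142 CPM in library B (0.76) and at 162 against 164 CPM in library C (-0.02). The gene differences of club-high cells in library A were thus mostly not called in the other libraries. The thresholds there, 0.0249% and 0.0292% of UMIs, lay under the highest share in library A's reference, 0.0444%. Some genes were also scarce there. Pon1 was at 0.139 and 0.475 CPM in the references of libraries B and C, against 74.3 CPM in library A. The comparison thus does not show whether the differences recur in cells as rich in club transcripts, and the cause was not tested.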

How the data were processed

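The deposited values are raw UMI counts, whole numbers in a single matrix of genes by barcodes, from 10x 3′ v3.1 libraries per the labels. The authors used bcl2fastq and Cell Ranger 6.0.1 with builds named GRCm38 and mm10, per the submitters' processing notes. Cell calling, doublet removal and demultiplexing are not given in the sources used here, and the tag libraries were not used here. GENCODE M21 (GRCm38) named 52403 of the 52636 gene IDs, and the 233 others held 0.0209% of UMIs.

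Barcodes with under 1000 UMIs, under 500 genes or over 15% mitochondrial UMIs were left out, which removed 0 barcodes of library A, 1 of B and 43 of C. No cell was removed as a doublet. A score was computed against 2 simulated doublets per cell on 2000 genes and 30 components, and the highest 5% of scores were left out as an alternative. Among cells of equal sum, those with more UMIs were taken as lower in the reference.

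UMIs were summed over each class and scaled to CPM with the 4 choosing genes left out of the total. Folds are log2 with a pseudocount of 1 CPM. Genes that reached 20 CPM in one class or both were compared, and called at an absolute log2 fold of at least 1. Intervals are exact Poisson, conditional or binomial 95% intervals. Genes named are the 4 choosing genes, in each list those that pass and otherwise a few of the most abundant, and outside the lists the 12 highest and 12 lowest with at least 50 CPM. Genes outside that rule were singled out after their values were seen. The members, the gene lists and the settings were chosen with earlier results of these data known. With 1 library per group no test was run. The fold calculation was tested on simulated data. TMM factors came from edgeR 4.0.16 (R 4.3.3), and all else was computed with scipy 1.17.1, scikit-learn 1.9.0, pandas 2.3.3 and numpy 2.4.6 in Python 3.11.15 and drawn with matplotlib 3.10.9. A gene of the club list is not reported here by name.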

Additional observations from a re-analysis of the deposited data

How the results depend on the processing

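Each count was recomputed under 27 alternatives, of which 5 were chosen after seeing the data. The 16 genes higher became 35 with the highest 2% as members, 111 with no level minimum, 5 with a minimum of 100 CPM, 48 at 1.5-fold and 9 with cells chosen without Scgb1a1. The 26 genes lower became 41 after thinning to 2000 UMIs before choosing, 125 with the highest 2%, 12 with the highest 10%, and 13 with all other cells as the reference. They became 272 with no minimum, 6 at 100 CPM, 17 with a pseudocount of 5 CPM, 186 at 1.5-fold, and 1 without Scgb1a1. The 3 other club genes called higher became 1 with the highest 10%, 6 with no minimum, 1 at 100 CPM and 1 without Scgb1a1. Changes under a minimum, a pseudocount or a fold limit follow from how these are built, and the cause of the others was not tested. All 11 measured other club genes stood above 0, 0 ATII genes were called lower and Cd24a was called higher under all 27. The 11 genes were those of the main comparison, where the filter fixed the sign of Cckar and Cyp4b1. A minimum, a pseudocount or a fold limit cannot change a sign. With 0.500% of all genes called lower in the main comparison, 0 calls among 28 ATII genes say little. Without Scgb1a1, log2 folds changed sign for Galnt18 (0.02), Stox2 (0.03), 2610028H24Rik (0.01) and Ifi27l2a (-0.76), and with the highest 2% for Meg3 (-1.10) and Ifi27l2a (-0.44). The cause was not tested. No paired analysis was possible because each group has 1 sample, and for the same reason no replicate could be left out. Rare genes rest on few UMIs: Sox2 had 24 in club-high cells, and its log2 fold ranged from 1.26 with a pseudocount of 5 CPM to 3.85 with the highest 2%.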
